A study of Danio rerio with 6 samples.

Results

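The minor spliceosome proteins examined here are 8 genes whose products belong to the U11 and U12 particles or work with them, namely rnpc3, zrsr2, snrnp25, snrnp35, snrnp48, zcrb1, pdcd7 and zmat5. They were chosen by gene name, and all 8 were found among the 37898 genes of the deposited count table and held enough reads for a test. RNA-seq had been performed on whole zebrafish embryos at 4 days post fertilization (dpf), with 3 libraries of sart3-/- embryos carrying the smu471 allele and 3 libraries of their wild-type siblings. Both groups came from crosses of sart3+/- parents. The paper describes melting-curve genotyping for stained embryos, and sorting by small head and eyes for its protein and cell sorting work at 4 dpf. The way used for these libraries is not named in the paper. The smu471 allele is a nonsense mutation of sart3 from a chemical mutagenesis screen. The paper calls the libraries biological replicates. The number of embryos in a library and their clutches are not given in the sources used here. The p-values measure the spread between these libraries, and whether it includes differences between clutches is not known.

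Most introns are removed by the major spliceosome, while a small class is removed by the minor spliceosome, which has its own U11, U12, U4atac and U6atac RNAs and shares U5. U11 and U12 form a joint particle that recognises the 5′ splice site and the branch site of a minor intron together. In human cells SART3 helps to rejoin U4 with U6, and U4atac with U6atac, after a round of splicing. In zebrafish, loss of rnpc3 arrests the growth of digestive organs. In humans, mutations of RNPC3 are known from growth hormone deficiency and mutations of ZRSR2 from myelodysplastic syndrome.

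The libraries held between 16008788 and 18310233 counts on genes. The targeted gene was examined first. The level of sart3 was 66.1, 68.8 and 70.2 CPM (read counts scaled to a common library size with TMM factors) in siblings and 53.4, 48.1 and 49.3 CPM in mutants, so the groups did not overlap. On the log2 scale the change was -0.44 with a standard error (SE) of 0.07, and the adjusted p was 0.0023 (edgeR, Benjamini-Hochberg over all genes tested). An adjusted p under 0.05 is named a call in what follows. Markers of several tissues moved between the groups. The 6 markers of dividing cells summed to 675 to 769 CPM in siblings and to 460 to 508 CPM in mutants, and 5 of the 6 were called lower and 1 higher. The 5 markers of neural progenitors summed to 84.1 to 102 CPM and to 46.5 to 49.5 CPM, and the 4 of exocrine pancreas to 2120 to 2140 CPM and to 46.2 to 58.8 CPM. The 5 markers of retina summed to 3420 to 4420 CPM in siblings and to 1110 to 1230 CPM in mutants, and the 2 of intestine to 549 to 598 CPM and to 371 to 426 CPM. The 3 markers of skeletal muscle went the other way, from 5110 to 5910 CPM in siblings to 6990 to 7600 CPM in mutants. The 2 of liver, 1 of them called lower, overlapped in sum, at 1380 to 1640 CPM in siblings and 1230 to 1770 in mutants. Those of blood found in the table overlapped too, at 79.1 to 130 CPM and 65.4 to 257 CPM. No marker gene found in the table was at 0 in all libraries.

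Among the minor spliceosome proteins, rnpc3 fell in mutants to 47.5% of its level in siblings (95% interval 38.5 to 58.7), and none of the other 7 was called. This was 1 of 8 members called, or 12.5%, against 27.9% of the 24809 genes tested across the series. By direction, 0 of 8 members were higher against 13.6% of all genes, and 1 of 8 was lower against 14.3%. The median log2 fold change of the 8 members was -0.14, with 5 below 0 and 3 above, and that of all genes tested was 0.01. Whether fewer cells that express a gene or less RNA in each cell lowered a level cannot be told apart in whole embryos.

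**Figure D1:**
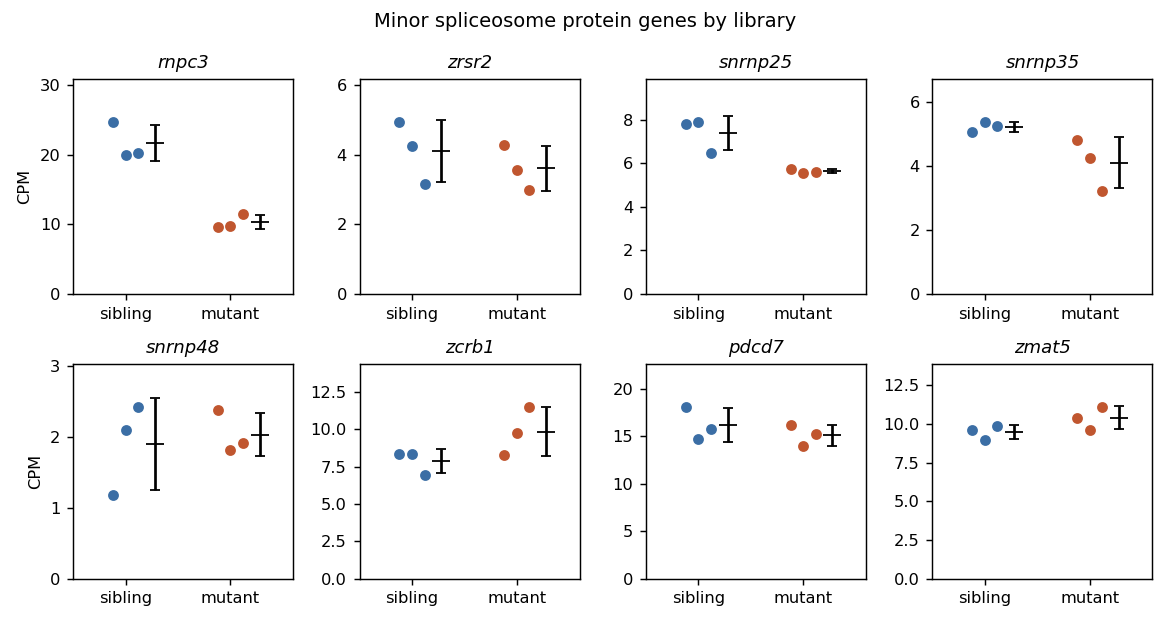
CPM of each minor spliceosome protein gene (y axis, from 0, a scale of its own in each panel) in the 3 sibling and 3 mutant libraries (points), with the mean and SD of each group as black marks. The rnpc3 panel shows mutant libraries at 9.66 to 11.5 CPM under sibling libraries at 20 to 24.7 CPM, while the points of zrsr2, snrnp48, zcrb1, pdcd7 and zmat5 overlap between the groups.

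The product of rnpc3 carries RNA recognition motifs, binds U12 RNA and, through the product of pdcd7, holds U11 and U12 together in human cells. The gene (ENSDARG00000011247) lies on the plus strand of chromosome 24 from 28934875 to 28968355 in GRCz11, the build named in the submitters' processing notes. Its sibling libraries held 440, 354 and 361 reads and its mutant libraries 167, 157 and 192. After scaling, siblings were at 24.7, 20 and 20.3 CPM (mean 21.7 ± 2.61, SD, n = 3) and mutants at 9.66, 9.78 and 11.5 CPM (mean 10.3 ± 1.01, SD, n = 3). The highest mutant library therefore lay well below the lowest sibling library. The log2 fold change of rnpc3 was -1.07 (SE 0.13, edgeR adjusted p = 6e-04). When 1 library at a time was dropped, it ranged from -1.16 to -0.97, and the gene was called in all 6 of these fits (edgeR adjusted p 0.0011 to 0.005). Of the 3556 genes called lower in mutants, 1173 had a log2 fold change at or below that of rnpc3, or 33.0%. The summed markers of dividing cells, neural progenitors, retina, exocrine pancreas and intestine given above were also lower in mutants. Those of skeletal muscle were higher. The sums of liver, with 1 of 2 markers called lower, and of blood overlapped between the groups. The part of any of these tissues in the level of rnpc3 was not tested.

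Within the group of 8, the reads of rnpc3 took 31.0%, 27.9% and 29.0% of all reads of the members in siblings and 15.7%, 16.8% and 18.2% in mutants. The share is taken within a library and so does not depend on scaling. The mean share was 29.3% ± 1.55 for siblings against 16.9% ± 1.27 for mutants (SD, n = 3), with no overlap. Since rnpc3 was singled out for its call, this restates its lower level, and no test of the share is used here. The other 7 members together held 55.0, 51.7 and 49.9 CPM in siblings and 52.0, 48.5 and 51.5 CPM in mutants. These sums overlapped, with means of 52.2 ± 2.63 and 50.7 ± 1.92 (SD, n = 3).

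Proteins of U11 were examined next. The product of snrnp48 contacts the 5′ splice site through a zinc finger, that of snrnp35 resembles the U1 70K protein, that of snrnp25 has a ubiquitin-like fold, and that of pdcd7 is the partner of the rnpc3 product. snrnp25 (ENSDARG00000020363, chromosome 3, 46377305 to 46379900, minus strand) was at 7.80, 7.91 and 6.48 CPM in siblings and at 5.73, 5.54 and 5.61 CPM in mutants. Its groups did not overlap, and the means were 7.40 ± 0.797 and 5.63 ± 0.0927 (SD, n = 3). The log2 fold change of snrnp25 was -0.39 (95% interval -0.76 to -0.03), and the gene was not called (edgeR adjusted p = 0.1, and 0.089 to 0.22 when 1 library was dropped). It was called when limma was run on log2 FPKM, a choice made after the values were seen. The limma adjusted p was 0.042 and 0.041 at pseudocounts of 1 and 0.1.

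snrnp35 (ENSDARG00000099913, chromosome 10, 44373349 to 44378081, plus strand) was at 5.05, 5.37 and 5.24 CPM in siblings and at 4.8, 4.24 and 3.22 CPM in mutants. The sibling libraries lay close together, and the mutant libraries spread below them without overlap. Its log2 fold change was -0.35 (SE 0.2), with a 95% interval from -0.81 to 0.11, and the gene was not called (edgeR adjusted p = 0.24). The groups thus did not overlap for 3 of the 8 members, rnpc3, snrnp25 and snrnp35, against 45.2% of all genes tested in either direction. These 3 were lower in mutants, and the share of all genes without overlap in that direction was not computed.

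pdcd7 (ENSDARG00000038976, chromosome 7, 13684012 to 13737618, plus strand) showed levels of 18.1, 14.7 and 15.8 CPM in siblings and 16.2, 14.0 and 15.2 CPM in mutants. These ranges overlapped, with a log2 fold change of -0.10 (95% interval -0.38 to 0.19, edgeR adjusted p = 0.6). The interval places the mutant level of pdcd7 between 76.8% and 114% of the sibling level, which does not reach the interval of rnpc3.

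snrnp48 (ENSDARG00000039989, chromosome 16, 36974523 to 36979597, minus strand) was counted least, with 21, 37 and 43 reads in siblings and 41, 29 and 32 in mutants. In CPM this was 1.18, 2.09 and 2.42 against 2.37, 1.81 and 1.91, so the groups overlapped. Its log2 fold change of 0.10 had an interval from -0.65 to 0.84 (edgeR adjusted p = 0.85), and without sibling replicate 1 it was -0.15. The table also holds an unnamed locus on an alternate contig of chromosome 16, from 36976374 to 36982974, described with the U11-48K-like zinc finger. That locus read 114, 53 and 69 counts in siblings and 65, 84 and 65 in mutants, more than snrnp48 itself in every library. Sibling replicate 1 had the fewest reads on snrnp48 and the most on the alternate locus. With the reads of both loci summed, a choice made after the values were seen, sibling libraries held 135, 90 and 112 and mutant libraries 106, 113 and 97. The log2 fold change was then -0.001 (95% interval -0.44 to 0.44).

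The product of zrsr2 is related to the small subunit of U2AF and binds the 3′ splice site of minor introns in human cells. zrsr2 (ENSDARG00000058448, chromosome 11, 12732247 to 12744082, minus strand) was at 4.94, 4.24 and 3.15 CPM in siblings and at 4.28, 3.55 and 2.99 CPM in mutants. The groups overlapped, with a log2 fold change of -0.19 (95% interval -0.75 to 0.37, edgeR adjusted p = 0.61). The gene overlaps AP1S2 on the same strand, which held at most 3 reads in any library.

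zcrb1 and zmat5 encode zinc finger proteins of the joint U11 and U12 particle. zcrb1 (ENSDARG00000045691, chromosome 4, 13923927 to 13931508, minus strand) was at 8.36, 8.37 and 6.93 CPM in siblings and at 8.27, 9.72 and 11.5 CPM in mutants. Mutant replicate 1 lay among the siblings and the other two mutant libraries above them. The log2 fold change of 0.32 (95% interval -0.07 to 0.71) was not called (edgeR adjusted p = 0.2). zcrb1 lies inside the span of pphln1 on the opposite strand, and the strand setting of the counting is not given in the sources used here. Whether exons of the pair overlap was not examined, so how well their reads are separated is not known. pphln1 had a mean of 35.3 CPM in each group and a log2 fold change of 0.0 (SE 0.1).

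zmat5 (ENSDARG00000035434, chromosome 5, 32076109 to 32080192, plus strand) was at 9.59, 8.99 and 9.86 CPM in siblings and at 10.4, 9.59 and 11.1 CPM in mutants. The groups overlapped, with a log2 fold change of 0.13 (95% interval -0.17 to 0.43, edgeR adjusted p = 0.51). zmat5 lies 11.6 Mb from sart3 on the same chromosome, and mutants and siblings were selected on that chromosome.

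The 7 members that were not called are not shown to be at equal levels. The intervals of their log2 fold changes reached down to -0.81 for snrnp35 and up to 0.84 for snrnp48. The interval of rnpc3, from -1.38 to -0.77, overlapped only that of snrnp35 among the other members. Those of snrnp25 and zrsr2 nearly touched it, starting at -0.76 and -0.75. Whether the change of rnpc3 differed from that of another member was not tested.

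**Figure D2:**
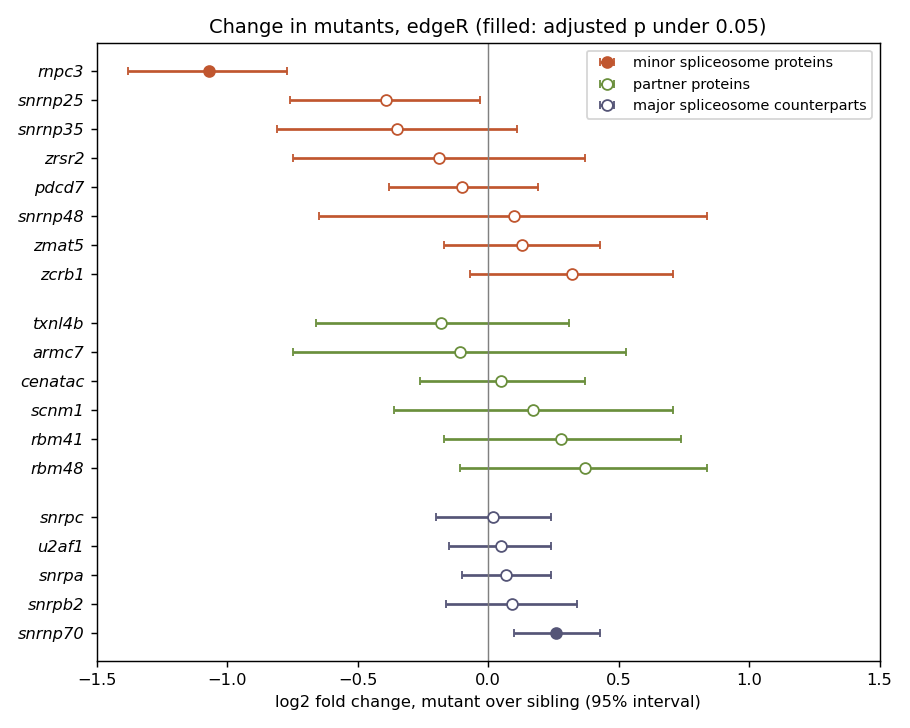
The log2 fold change of mutants over siblings (x axis) with its 95% interval from edgeR for the 8 minor spliceosome proteins, 6 partner proteins and 5 major spliceosome counterparts, with filled points for an adjusted p under 0.05. The filled points are rnpc3 at -1.07 and snrnp70 at 0.26, the interval of snrnp25 ends at -0.03, and the others except those of the filled points cross 0.

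Levels between genes were compared in FPKM, the deposited value per gene length. The order of the 8 members by mean over the libraries was zmat5 at 11.1 FPKM, snrnp25 at 6.58, snrnp35 at 6.04, zcrb1 at 3.56, pdcd7 at 3.25, rnpc3 at 2.31, snrnp48 at 1.27 and zrsr2 at 1.04. In siblings, zmat5 ranged from 10 to 10.9 FPKM and stood above all others, while snrnp25 and snrnp35 overlapped, as did zcrb1, pdcd7 and rnpc3, and also snrnp48 and zrsr2. In mutants the place of rnpc3 differed. Its 1.39 to 1.65 FPKM lay below the 2.90 to 3.35 FPKM of pdcd7 and overlapped the 1.17 to 1.53 FPKM of snrnp48, whereas in siblings its 2.87 to 3.62 FPKM overlapped the 3.03 to 3.82 FPKM of pdcd7. Against a median of 4.02 FPKM over the genes tested in siblings, zmat5, snrnp25 and snrnp35 lay above it and the other 5 below. These comparisons take snrnp48 at its named locus alone. The unnamed locus on the alternate contig of chromosome 16 had means of 2.78 FPKM in siblings and 2.68 FPKM in mutants. zmat5 stood above 76.4% of the genes tested and zrsr2 above 17.5%.

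**Figure D3:**
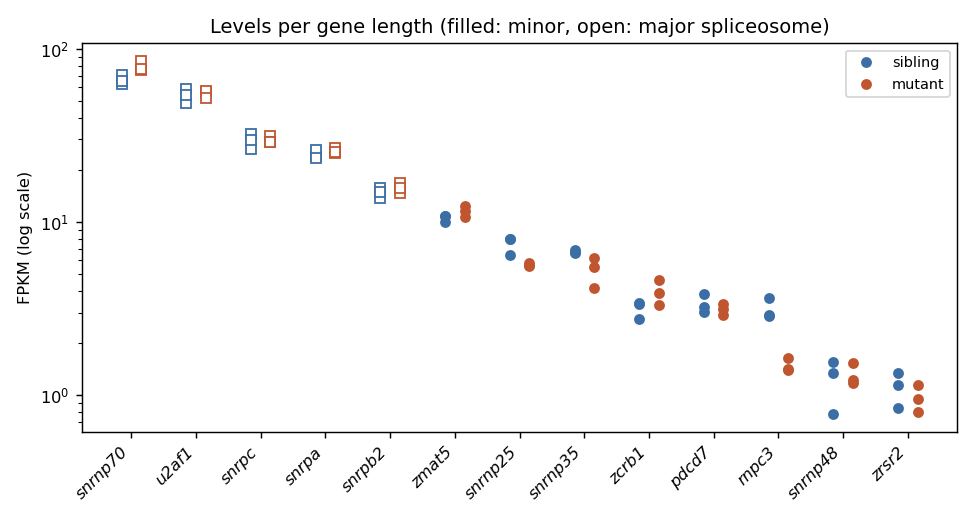
FPKM (y axis, log scale) of the 8 minor spliceosome proteins (filled circles) and of 5 major spliceosome counterparts (open squares) in each sibling and mutant library, ordered by mean. The counterparts lie above every member, and the mutant points of rnpc3 at 1.39 to 1.65 FPKM sit below its sibling points at 2.87 to 3.62 FPKM.

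The major spliceosome holds proteins at the same step. snrnp70, snrpc and snrpa encode the proteins specific to U1, snrpb2 encodes an RNA recognition motif protein of U2, and u2af1 encodes the U2AF subunit that reads the 3′ splice site. In FPKM their libraries ranged from 13.7 to 16.8 for snrpb2, the lowest, and from 62.3 to 85.0 for snrnp70, the highest, all above the 12.4 FPKM of the highest library of any member. Of these 5 genes, 1 was called, against 27.9% of all genes tested. snrnp70 was at 190, 171 and 179 CPM in siblings and at 233, 208 and 208 CPM in mutants, which is 0.26 on the log2 scale (SE 0.07, edgeR adjusted p = 0.025). The call was lost without sibling replicate 2 or 3 or mutant replicate 1 or 2, with edgeR adjusted p up to 0.12. For the others, snrpa had a log2 fold change of 0.07, snrpb2 of 0.09, u2af1 of 0.05 and snrpc of 0.02, with edgeR adjusted p between 0.52 and 0.92. Whether the change of any of them differed from that of rnpc3 was not tested.

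Other proteins are known to work with the minor spliceosome. In plants and human cells RBM48 and ARMC7 bind together and act on minor introns, SCNM1 joins the minor spliceosome at a later step, CENATAC and TXNL4B are part of the U4atac and U6atac particle, and RBM41 resembles the RNPC3 protein. None of these 6 genes was called by edgeR at an adjusted p under 0.05, by DESeq2 or by limma-voom. Of all genes tested, edgeR called 27.9%. In all, DESeq2 called 6593 genes and limma-voom 6943. The median log2 fold change of the 6 partner genes was 0.11. The groups of rbm48 did not overlap, at 3.70, 3.22 and 3.27 CPM in siblings and 4.17, 3.80 and 5.20 CPM in mutants (log2 fold change 0.37, 95% interval -0.11 to 0.84, edgeR adjusted p = 0.23). Nor did those of rbm41, at 3.42, 3 and 3.77 CPM and at 3.88, 4.05 and 4.48 CPM (log2 fold change 0.28, edgeR adjusted p = 0.33). This was 2 of the 6 partner genes without overlap, against 45.2% of all genes tested. cenatac, listed under its older name ccdc84, was at 11.6, 12.6 and 15 CPM in siblings and at 13.5, 14.5 and 12.7 CPM in mutants (log2 fold change 0.05, edgeR adjusted p = 0.8), and scnm1, txnl4b and armc7 had log2 fold changes of 0.17, -0.18 and -0.11. The RNA partners were hardly counted. The table holds 7 genes of U11, U12, U4atac and U6atac RNA, with 1 read over all libraries. Whether such libraries capture these RNAs was not examined, so the counts do not show their levels.

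The authors also deposited splice events that passed their own rMATS test of the same contrast, so the values below are a description. A retained intron was the sole event listed in a member, in zrsr2. The intron runs from 12740902 to 12741315 on chromosome 11 and is 414 bases long. The effective length of the retained form, 563 bases, takes in the intron, so reads inside the intron count for it beside junction reads. In sibling libraries 7, 4 and 12 reads counted for the retained form and 1, 1 and 2 for the spliced form. This gave a retained form of 64.9%, 51.4% and 61.4% after division by the effective lengths. In mutants the reads were 2, 10 and 0 against 4, 5 and 0, so that a library had no read and the others gave 11.7% and 34.6%. The retained form of zrsr2 was lower in both mutant libraries with a value, on at most 15 reads in any library. The tables do not name the libraries behind the 3 values of a group.

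cenatac, whose product is part of the U4atac and U6atac particle, also had a retained intron, 185 bases long, from 58690127 to 58690311 on chromosome 5. The gene lies 38.2 Mb from sart3 on the chromosome on which mutants and siblings were selected. Sibling libraries had 11, 27 and 20 retained and 6, 6 and 13 spliced reads, or 45%, 66.7% and 40.7% of the retained form. Mutant libraries had 35, 43 and 31 retained and 0, 5 and 7 spliced reads, or 100%, 79.3% and 66.4%. The mean was 50.8% ± 14.0 in siblings and 81.9% ± 17.0 in mutants (SD, n = 3), and the lowest mutant value lay just inside the sibling range. Whether either intron is a minor intron was not examined. No event was listed for rnpc3, snrnp25, snrnp35, snrnp48, zcrb1, pdcd7 or zmat5. Thus 1 of 8 members had any event, or 12.5%, against 6.22% of the genes tested.

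**Figure D4:**
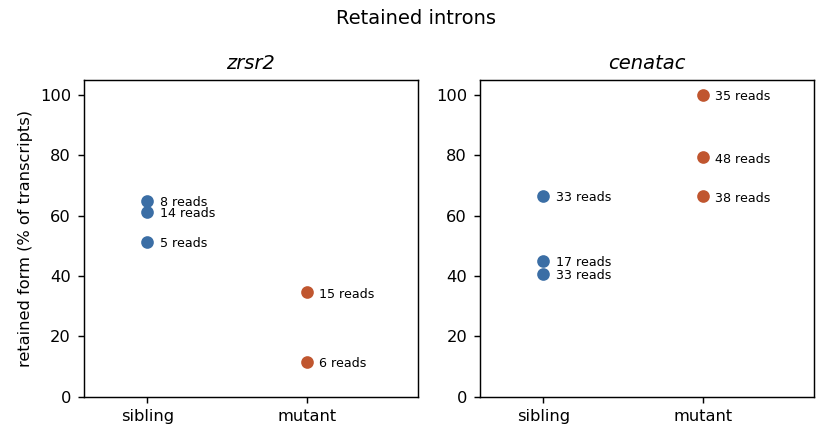
Retained form in percent (y axis) of the listed introns of zrsr2 and cenatac in each library with reads, with the number of reads behind each point. The zrsr2 points are at 51.4% to 64.9% in siblings and at 11.7% and 34.6% in mutants, and the cenatac points are at 40.7% to 66.7% and at 66.4% to 100%.

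Genes known in vertebrates to carry a minor intron were taken from a list of 35 symbols written from memory, since intron sequences were not used here. It includes E2F, MAP kinase and voltage-gated channel genes. Of the 31 genes tested, 3 were higher and 4 lower in mutants, or 22.6%, against 27.9% of all genes, with a median log2 fold change of 0.16. mapk9, which encodes a JNK kinase, rose from 9.93, 12.7 and 11.8 CPM in siblings to 24.8, 21.0 and 20.3 CPM in mutants (log2 fold change 0.94, SE 0.14, edgeR adjusted p = 0.0013). gnai2a, a G protein subunit gene, rose from 75.3 ± 2.96 to 94.2 ± 3.38 CPM (SD, n = 3), with a log2 fold change of 0.32 (edgeR adjusted p = 0.0067). e2f5, a cell cycle transcription factor gene, was at 1.57, 0.848 and 1.46 CPM in siblings and 3.01, 2.8 and 2.03 CPM in mutants and was called with a log2 fold change of 1.01 (edgeR adjusted p = 0.048), a call kept without sibling replicate 1 and lost when any other library was dropped. The call of e2f5 was also lost with DESeq2 (adjusted p = 0.078), with every gene with a count kept (edgeR adjusted p = 0.061), with upper-quartile factors (edgeR adjusted p = 0.05, rounded) and with a replicate block (edgeR adjusted p = 0.08).

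In the other direction, scn4ab, a sodium channel of skeletal muscle, fell from 62.1 ± 5.49 to 45.9 ± 1.36 CPM (SD, n = 3), with a log2 fold change of -0.44 (edgeR adjusted p = 0.0054). The summed skeletal muscle markers were higher in mutants, at 6990 to 7600 CPM against 5110 to 5910. The part of muscle in the level of scn4ab was not tested. The level of ctnnbl1, whose product works with the Prp19 complex, fell from 38.6 ± 2.91 to 29.7 ± 1.49 CPM (SD, n = 3), with a log2 fold change of -0.38 (edgeR adjusted p = 0.014), a call lost without sibling replicate 3 or mutant replicate 2. None of the 31 genes had a listed retained intron, against 0.576% of all genes tested, a share so low that 0 of 31 tells little. An event of another type was listed for 6 of them, so that 19.4% had any event against 6.22% of all genes tested. Some of these events had libraries without any read. The genes were not matched to the others for read depth or number of exons, and whether any event lies at a minor intron was not examined.

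The genes whose log2(CPM + 1) followed rnpc3 most closely over the 6 libraries were si:ch211-288g17.3, tmsb2, a thymosin, and acmsd, an enzyme of tryptophan breakdown, each with a Pearson r of 0.999. acmsd read 27.8, 21.1 and 22.7 CPM in siblings and 9.43, 9.10 and 11.6 CPM in mutants. The 6 points are 3 libraries from each of 2 groups that differ in rnpc3, and 1423 of 24808 genes had an r of at least 0.95 with rnpc3.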

How the data were processed

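RNA-seq of whole zebrafish embryos at 4 dpf was examined in 3 sart3-/- and 3 wild-type sibling libraries. The authors deposited counts per gene without normalization, and FPKM that the authors made from counts and gene length. HISAT2 2.0.5, featureCounts 1.5.0-p3 and GRCz11 are named in the submitters' processing notes. Every table line carries a gene ID. The deposited rMATS tables also hold p-values, FDR and inclusion differences of the authors' comparison, which were not used. The rMATS columns do not name the groups. The first was read as mutant, from the order in which the comparison is written.

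Counts were analysed with R 4.3.3 and edgeR 4.0.16 (filterByExpr, TMM, quasi-likelihood test, Benjamini-Hochberg adjustment over 24809 genes at 0.05). On simulated data the fit recovered fewer of the genes with the greatest change than the pass mark first set, and the mark was then lowered with the fit unchanged. Alternatives used DESeq2 1.42.0, limma 3.58.1, other factors and filters, a replicate block and leaving out each library. TMM factors lay between 0.975 and 1.01. Pairs of libraries within a group differed beyond counting error (chi-square over its degrees of freedom 4.3 to 12.9). Inclusion was the share of the retained form after division of the reads of each form by its effective length. Intervals on fold changes are 95% intervals from edgeR.

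Named genes were the members, sart3, the partner and counterpart genes, up to 3 called minor-intron genes in each direction with the smallest adjusted p, and the 3 genes most like rnpc3. A minor-intron gene that this rule names is not reported here. The members and lists were chosen with earlier results of these data known, and the lists were written from memory. No nucleotide or protein sequences were used here.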

Additional observations from a re-analysis of the deposited data

How the results depend on the processing

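rnpc3 was the sole member called under DESeq2, limma-voom, RLE and upper-quartile factors, both other filters and each library left out (1 call in each, range 1 to 1). With limma on log2(FPKM + 1) or log2(FPKM + 0.1), chosen after seeing the data, 2 members were called, the added one being snrnp25. Same-numbered libraries did not deviate together (r of 0.0643, 0.0284 and -0.107 over genes), so these values show no pairing by number. They cannot tell whether same-numbered libraries shared a clutch, which is not given. The fit with a replicate block called 1 member, 6 minor-intron genes and 5941 genes in all. Of the major counterparts, 0 were called with every gene with a count kept, and 0 to 1 with a library left out. Minor-intron genes called numbered 4 to 7 (4 without sibling replicate 3 or mutant replicate 2) and all genes called 4706 to 7085 with a library left out. Among single genes, 376 values kept their side of the threshold, 16 lost a call (snrnp70, ctnnbl1 and e2f5, the last also with DESeq2 and the replicate block) and 2 gained it (snrnp25). No called gene changed direction. With at least 10 reads on the event required in every library, 0 events of members were left. The median log2 difference of the members in FPKM was -0.143, -0.087 with a pseudocount of 1 and -0.134 with 0.1. The cause of these changes was not tested. A list of minor-intron genes by splice site motif was not run, since no genome was used here. Of the members, snrnp48, snrnp35 and zrsr2 had the fewest reads, with 21 to 95 in a library. The unnamed locus on the alternate contig held more reads than snrnp48 in every library, and a division of reads between these loci was not tested.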

Other observations

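Of the 6 minor-intron genes with a listed event, the groups of 3 did not overlap, and all 3 events were pairs of mutually exclusive exons. The share of all listed events without overlap was not computed, so this count has no background to be set against. The values are the share of the form that rMATS counts as inclusion, after division by effective length. For mapk14a, a p38 kinase gene, siblings stood at 18.9%, 22.1% and 23.2% and mutants at 43.9%, 45.5% and 60%, with as few as 10 reads in a library. For ercc5, a nuclease gene of nucleotide excision repair, siblings stood at 29.3%, 54.4% and 52.4% and mutants at 65.1%, 73.9% and 83.3%. For raf1b, a kinase gene, siblings stood at 37.3%, 51.7% and 32.2% and mutants at 32%, 23.6% and 31.8%, so the groups nearly touched. These events had passed the authors' test on the same libraries, so no test was made here, and whether a minor intron borders these exons was not examined.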
